A study of Homo sapiens with 16 samples.

Results

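The genes described here are 10 mRNAs of the translation machinery that begin, or are reported to begin, with a 5′ terminal oligopyrimidine (TOP) tract. They are EEF1A1, EEF2, EEF1B2, EEF1D, EEF1G, PABPC1, TPT1, EIF4B, EIF3E and NPM1, taken by symbol from the 25369 genes of the count table. The group was chosen by gene symbol, and in part selected on measured values of these data, namely the share of counts held by EEF1A1 and EEF2 across the TPC1 libraries. Those 2 genes are therefore described in TPC1 without a test, whereas the other 8 genes in TPC1 and all 10 genes in K1 were tested. All 10 genes passed the filter on low counts in both lines.

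TOP mRNAs start with a cytosine at the cap followed by an uninterrupted run of pyrimidines, and they encode the ribosomal proteins, the elongation factors and a small number of other translation proteins. The mTORC1 kinase acts on this class mostly at the level of translation, in part through LARP1, a protein that holds the cap and the adjacent tract and also protects these mRNAs from decay. RNA-seq reads the amount of polyadenylated RNA and not its translation, so the values below are RNA levels only.

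Both lines, TPC1 and K1, were derived from human papillary thyroid carcinoma, and the study describes their p53 as wild type. Cells received 0.2% DMSO as vehicle, 10 µM Nutlin (Nutlin-3a, which blocks the binding of MDM2 to p53), 25 µM GSK (GSK2830371, an inhibitor of the phosphatase PPM1D) or both drugs (NutlinGSK), and RNA was taken after 24 h. Each of the 8 groups holds 2 libraries, and poly(A) RNA was sequenced with strand information. TPC1 cells were kept in RPMI and K1 cells in DMEM, so line and medium cannot be told apart in any comparison of the lines.

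The TPC1 libraries held 30789887 to 76648552 counts and the K1 libraries 28888686 to 37161241. The TPC1 columns are numbered 1 and 3, while the sample labels number the replicates 1 and 2, and the column numbers are used here. Library 1 of each TPC1 treatment is the shallower one, with at most 36896529 counts against at least 62853375 in library 3. Replicates within a group differed beyond sampling noise in every group, with a chi-square per degree of freedom of 5.38 to 54.1. The thyroid marker PAX8 lay at 280 to 451 CPM (counts scaled to 1000000 per library) in TPC1 and 749 to 841 CPM in K1, whereas NKX2-1 had no count in TPC1 and TSHR had none in either line. Of 7 markers of leukocytes, endothelium and fibroblasts, PTPRC, PECAM1 and COL3A1 had at most 3 counts in any library. The 7 together, mostly CD68 and ACTA2, summed to 47.8 to 50.2 CPM in DMSO, 187 CPM or more in both Nutlin libraries, 59.7 to 65.7 CPM in GSK and 180.0 to 186 CPM in NutlinGSK in TPC1, ACTA2 going from at most 8.99 CPM in DMSO to at least 119 CPM in Nutlin. The K1 sums were 81.4 to 94.0, 113 to 115, 88.2 to 92.5 and 101 to 110.0 CPM in the same order, and the part of these markers in the results was not tested. As a check of the treatments, the p53 target CDKN1A rose in TPC1 from 139 ± 15.2 CPM in DMSO to 6629 ± 84.8 CPM in Nutlin (SD, n = 2). In K1 it rose from 114 ± 5.17 to 1012 ± 48.4 CPM (SD, n = 2). Below, an error after ± is the standard error (SE) for a log2 difference and the SD for a level, share or ratio.

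The first bases of the annotated transcripts show which of the genes begin with a TOP tract. RefSeq sequences (GRCh38.p14) matched 7 of the 10 genes, the others being EEF1D, PABPC1 and EIF3E. Each run below covers 30 bases, 5 before the annotated start and 25 from it. Capitals mark the pyrimidine run that begins at the first C at or after the start.
EEF1A1: acgttCTTTTTCgcaacgggtttgccgcca
EEF2: gcgttCTCTTCCgccgtcgtcgccgccatc
EEF1B2: cgggtCCTTTTTCCTCTCTTCagcgtgggg
TPT1: tcggcCTTTTCCgcccgctcccccctcccc
NPM1: gcgtcCTTTCCCTggtgtgattccgtcctg
EIF4B: cgggtCTTTTgcgttctctttccctctccc
EEF1G: ggcttaCTTTgcggcagcgccgagaacccc

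These windows lie at chr6:73521008-73521037 on the minus strand for EEF1A1, chr19:3985439-3985468 on the minus strand for EEF2, chr2:206159890-206159919 on the plus strand for EEF1B2, and chr13:45341159-45341188 on the minus strand for TPT1. They lie at chr5:171387844-171387873 on the plus strand for NPM1, chr12:53006451-53006480 on the plus strand for EIF4B, and chr11:62573867-62573896 on the minus strand for EEF1G. A C at the annotated start followed by at least 4 pyrimidines was found in 6 of these 7 genes, on the transcribed strand. The run was longest in EEF1B2, with 16 bases, and shortest in EIF4B, with 5. EEF1G has its first C at position 2 and a run of only 4 bases, so it does not meet this definition at the annotated start. EEF1B2 and NPM1 have a second annotated start at which the definition is not met, and the start that meets it is shown. For comparison, 5.14% of all 27305 genes with a sequence meet the definition at any annotated start, and 74.6% of the 63 cytosolic ribosomal protein genes with one do. The genes described here were chosen as TOP mRNAs, so their higher share was built into the choice. A match describes the letters at an annotated start and does not show where transcription began in these cells.

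In TPC1 the elongation factor mRNAs EEF1A1 and EEF2 held a larger share of the counts in Nutlin and NutlinGSK than in DMSO. EEF1A1 (chr6:74225473-74230755, GRCh37) encodes eEF1A, the GTPase that brings aminoacyl-tRNA to the ribosome, and it had the highest count of any gene in all 8 TPC1 libraries. Its share of the TPC1 counts was 0.882% in library 1 (exact 95% binomial interval 0.8792 to 0.8853%) and 1.04% in library 3 of DMSO, 1.4% and 1.55% in Nutlin, 1% and 1.08% in GSK, and 1.73% and 2.05% in NutlinGSK. The Nutlin and NutlinGSK libraries lay above the DMSO libraries, and every NutlinGSK library lay above every Nutlin library, while GSK and DMSO overlapped. The log2 fold changes come from an edgeR fit with TMM scaling of the libraries, and not from these raw shares. Against DMSO the fit gave 0.65 ± 0.13 (SE) in Nutlin, 0.06 ± 0.13 (SE) in GSK and 1.03 ± 0.13 (SE) in NutlinGSK, the last being 2.04-fold. Binomial intervals cover counting error only, and for any of the 10 genes in any library the interval extends by at most 2.87% of the value to either side, because the lowest count was 4707.

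EEF2 (chr19:3976054-3985461, GRCh37) encodes the GTPase that moves the ribosome along the mRNA. In TPC1 it held 0.39% and 0.403% of the counts in DMSO, 0.647% and 0.654% in Nutlin, 0.426% and 0.443% in GSK, and 0.852% and 0.889% in NutlinGSK. None of the 4 treatments overlapped with another, and the gene moved from the 10th most abundant in DMSO to the 4th in Nutlin and the 3rd in NutlinGSK. The log2 fold change was 0.75 ± 0.087 (SE) in Nutlin, 0.08 ± 0.087 (SE) in GSK and 1.19 ± 0.088 (SE) in NutlinGSK, or 2.28-fold. The choice of genes used these TPC1 values, and they are a description.

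K1 showed little of this. EEF1A1 held 0.664% and 0.734% of the K1 counts in DMSO, 0.737% and 0.713% in Nutlin, 0.735% and 0.671% in GSK and 0.786% and 0.739% in NutlinGSK. The log2 fold change in NutlinGSK was 0.09 ± 0.066 (SE), which did not pass the test (adjusted p = 0.28 by the quasi-likelihood test of edgeR, Benjamini-Hochberg over all genes). EEF2 held 0.279% and 0.305% in DMSO and 0.356% and 0.335% in NutlinGSK, without overlap. This was a rise by 0.21 ± 0.064 (SE) on the log2 scale, or 1.16-fold, and it passed the test (adjusted p = 0.016). Without DMSO library 1 the EEF2 difference in K1 was 0.15 (adjusted p = 0.17), and without NutlinGSK library 1 it was 0.15 (adjusted p = 0.16). Nutlin and GSK alone left both genes within 0.13 on the log2 scale of DMSO in K1, and neither difference passed the test.

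**Figure D1:**
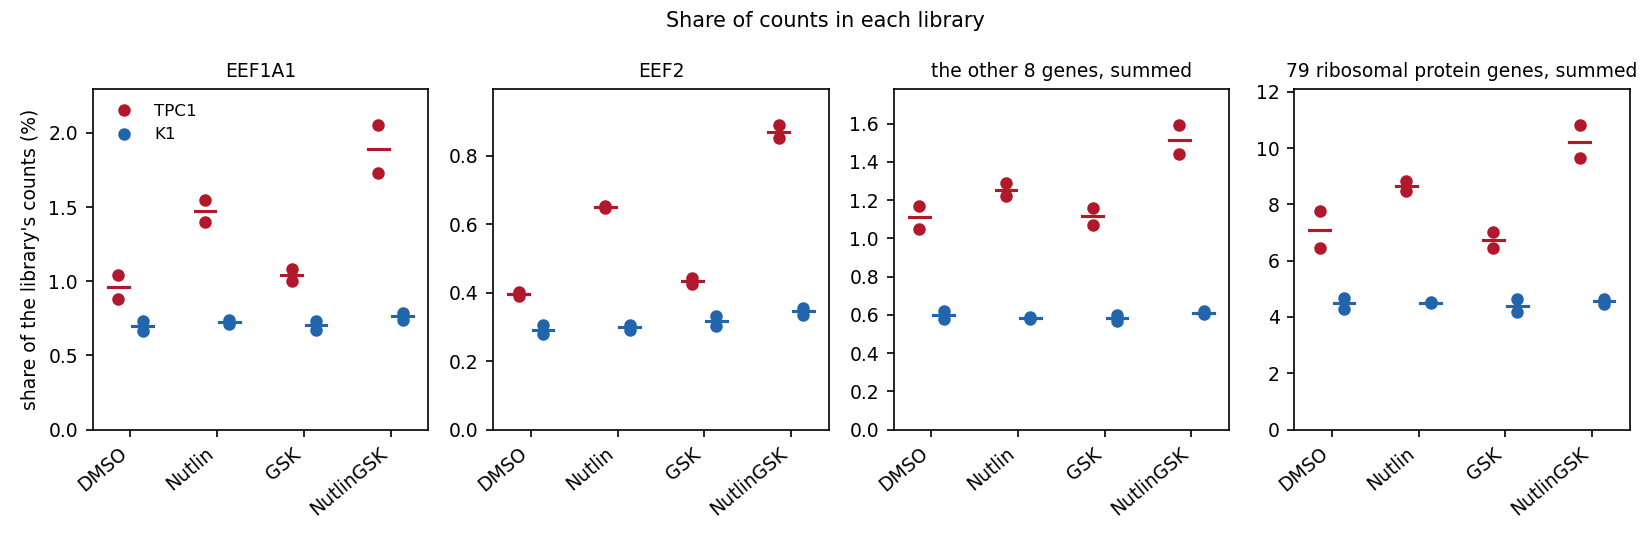
Share of each library's counts, in percent, held by EEF1A1, EEF2, the other 8 genes summed and 79 cytosolic ribosomal protein genes summed, by treatment. Points are single libraries (2 per group), short lines are group means, and the vertical axes start at 0. In TPC1 all 4 panels are highest in NutlinGSK, whereas the K1 points stay within a narrow band.

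Together the 10 genes held 2.47 ± 0.21% of the counts in TPC1 treated with DMSO, 3.38 ± 0.16% in Nutlin, 2.59 ± 0.13% in GSK and 4.27 ± 0.35% in NutlinGSK (SD, n = 2). In K1 the sum stayed between 1.52% and 1.76% over all 8 libraries. Without EEF1A1 and EEF2, the other 8 genes went from 1.11 ± 0.085% in DMSO to 1.52 ± 0.11% in NutlinGSK in TPC1 (SD, n = 2). The corresponding K1 values were 0.601 ± 0.03% and 0.611 ± 0.011% (SD, n = 2).

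The subunits of the eEF1B complex, which recharges eEF1A with GTP, had smaller log2 fold changes than EEF1A1 in TPC1 under Nutlin and NutlinGSK. That difference was not tested, and the TPC1 values of EEF1A1 entered the choice of genes. EEF1D (chr8:144661898-144679585, GRCh37) encodes the exchange subunit eEF1B delta. It had 617 and 701 CPM in DMSO, 822 and 823 CPM in Nutlin, 611 and 644 CPM in GSK, and 1034 and 1128 CPM in NutlinGSK in TPC1. Neither Nutlin nor NutlinGSK overlapped with DMSO, and the difference was 0.35 ± 0.094 on the log2 scale in Nutlin (adjusted p = 0.011) and 0.77 ± 0.094 in NutlinGSK (adjusted p = 8.5e-05, 1.7-fold). In K1 the same gene stayed between 365 and 429 CPM in all 8 libraries and passed no test.

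EEF1G (chr11:62327068-62341363, GRCh37), the structural gamma subunit, had 1758 and 2061 CPM in DMSO, 2361 and 2461 CPM in Nutlin, 1770 and 1940 CPM in GSK, and 2539 and 2829 CPM in NutlinGSK in TPC1. The rise was 0.37 ± 0.11 in Nutlin (adjusted p = 0.018) and 0.54 ± 0.11 in NutlinGSK (adjusted p = 0.002) on the log2 scale. Its K1 libraries lay between 998 and 1101 CPM, with no difference that passed. EEF1B2 (chr2:207024619-207027652, GRCh37), the other exchange subunit, behaved differently under Nutlin alone. Its TPC1 level was 371 and 433 CPM in DMSO, 403 and 404 CPM in Nutlin, 365 and 388 CPM in GSK, and 485 and 520 CPM in NutlinGSK. The Nutlin libraries fell inside the DMSO range (log2 fold change 0.04 ± 0.095, adjusted p = 0.76), and only the NutlinGSK libraries lay above DMSO, by 0.37 ± 0.095 (adjusted p = 0.0072). K1 libraries held 266 to 303 CPM.

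The ratio of EEF1A1 to EEF1B2 counts in TPC1 is a description only. The TPC1 share of EEF1A1 entered the choice of genes, so a gap to a gene that rose less was built in. EEF1A1 had 23.9 ± 0.16 counts for each EEF1B2 count in DMSO, 36.5 ± 2.5 in Nutlin, 27.6 ± 0.25 in GSK and 37.6 ± 2.5 in NutlinGSK (SD, n = 2). In K1 the ratio ran from 23.8 ± 0.66 in GSK to 26.7 ± 0.076 in Nutlin (SD, n = 2). The ratio of EEF1A1 to EEF2, in contrast, stayed between 2.03 and 2.58 in all 16 libraries of both lines. Ratios are of read counts and not of molecules, since they depend on transcript length.

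**Figure D2:**
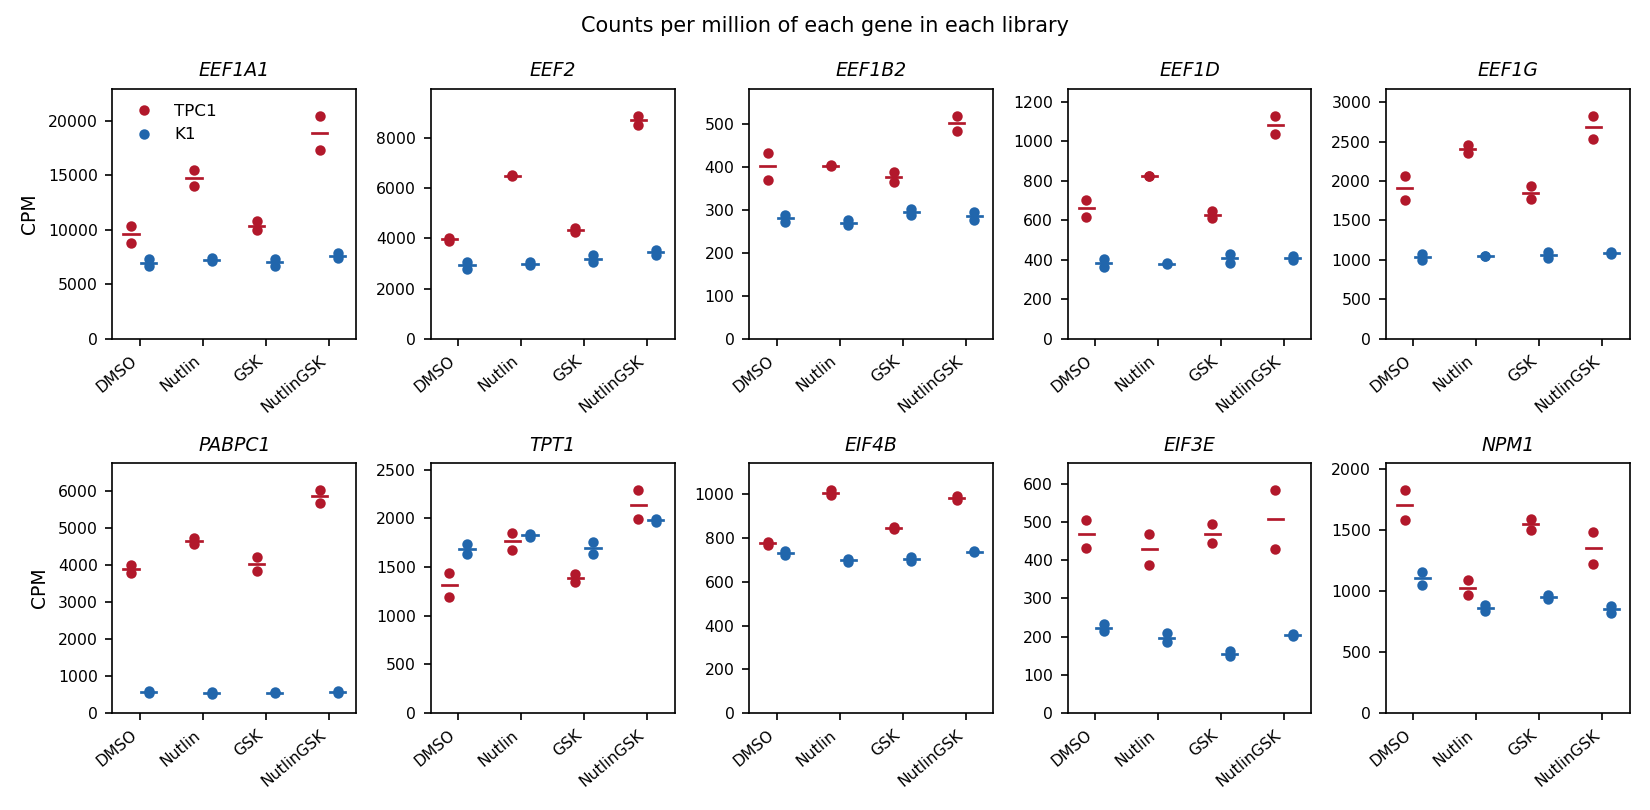
CPM of each of the 10 genes in each library, by treatment, with TPC1 in red and K1 in blue. Points are libraries (2 per group), short lines are group means and each vertical axis starts at 0. PABPC1 shows the widest gap between the lines, EIF3E in K1 is lowest in GSK, and NPM1 is lower in Nutlin than in DMSO in both lines.

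Among the factors that act at initiation and on the poly(A) tail, the TPC1 changes were not uniform. PABPC1 (chr8:101715144-101734316, GRCh37) encodes the main cytoplasmic poly(A) binding protein. It had 3794 and 3988 CPM in DMSO, 4568 and 4732 CPM in Nutlin, 3827 and 4227 CPM in GSK, and 5688 and 6026 CPM in NutlinGSK in TPC1. The increase was 0.29 ± 0.094 in Nutlin (adjusted p = 0.027) and 0.64 ± 0.094 in NutlinGSK (adjusted p = 2.8e-04, 1.56-fold), without overlap with DMSO in either. K1 held only 522 to 596 CPM and no treatment passed the test there.

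EIF4B (chr12:53400240-53435999, GRCh37) encodes a cofactor of the eIF4A helicase. In TPC1 it had 769 and 782 CPM in DMSO, 996 and 1020 CPM in Nutlin, 842 and 852 CPM in GSK, and 976 and 993 CPM in NutlinGSK. The increase was of about the same size with and without GSK, 0.41 ± 0.073 in Nutlin (adjusted p = 0.0011) and 0.4 ± 0.073 in NutlinGSK (adjusted p = 0.0011), and the difference between these treatments was -0.02 ± 0.073 (adjusted p = 0.9). EIF4B was the only member with a mean in NutlinGSK below that in Nutlin in TPC1. In K1 it lay between 689 and 743 CPM.

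EIF3E (chr8:109213445-109260946, GRCh37), a subunit of the eIF3 complex that recruits the small ribosomal subunit, had 432 and 506 CPM in DMSO, 388 and 469 CPM in Nutlin, 445 and 495 CPM in GSK, and 430 and 584 CPM in NutlinGSK in TPC1. All 4 treatments overlapped. Its level fell in K1 under GSK alone. The K1 values were 214 and 232 CPM in DMSO, 209 and 185 CPM in Nutlin, 148 and 162 CPM in GSK, and 201 and 206 CPM in NutlinGSK. The log2 fold change under GSK was -0.52 ± 0.065 (adjusted p = 4.0e-04, 1.43-fold lower), and both GSK libraries lay below all others of the line. EIF3E mRNA has 37.2% GC, the lowest of the 10, and with a correction for the trend of counts on GC content and length the K1 difference was -0.25 ± 0.049 (adjusted p = 0.0074).

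TPT1 and NPM1 stand outside the ribosome itself. TPT1 (chr13:45907606-45915318, GRCh37) encodes the translationally controlled tumour protein, an abundant growth-related protein. It had 1189 and 1440 CPM in DMSO, 1677 and 1853 CPM in Nutlin, 1340 and 1429 CPM in GSK, and 1988 and 2290 CPM in NutlinGSK in TPC1. The rise was 0.46 ± 0.12 in Nutlin (adjusted p = 0.011) and 0.75 ± 0.12 in NutlinGSK (adjusted p = 5.0e-04, 1.69-fold). TPT1 also rose in K1, from 1634 and 1731 CPM in DMSO to 1989 and 1965 CPM in NutlinGSK. That difference was 0.2 ± 0.055 (adjusted p = 0.0095), and it was 0.16 (adjusted p = 0.11) without DMSO library 1 and 0.18 (adjusted p = 0.071) without NutlinGSK library 1.

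NPM1 (chr5:170814853-170837904, GRCh37), the nucleolar chaperone nucleophosmin, fell where most of the others rose. It had 1578 and 1827 CPM in DMSO, 964 and 1090 CPM in Nutlin, 1502 and 1589 CPM in GSK, and 1217 and 1482 CPM in NutlinGSK in TPC1. The log2 fold change was -0.7 ± 0.13 in Nutlin (adjusted p = 0.0012, 1.62-fold lower) and -0.28 ± 0.13 in NutlinGSK (adjusted p = 0.075). In K1 it had 1051 and 1154 CPM in DMSO, 888 and 834 CPM in Nutlin, 964 and 935 CPM in GSK, and 875 and 821 CPM in NutlinGSK. All treated K1 libraries lay below both DMSO libraries, and the log2 fold change was -0.35 ± 0.06 in Nutlin (adjusted p = 6.2e-04), -0.21 ± 0.06 in GSK (adjusted p = 0.027) and -0.41 ± 0.06 in NutlinGSK (adjusted p = 8.7e-05). NPM1 was the only one of the 10 genes to fall under Nutlin in both lines with a passing test. The K1 difference under GSK was -0.08 ± 0.053 (adjusted p = 0.37) with the GC and length correction, and it also lost its call without DMSO library 2 (adjusted p = 0.25), GSK library 1 (adjusted p = 0.066) or GSK library 2 (adjusted p = 0.098).

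Counted over the 8 genes tested in TPC1, Nutlin against DMSO gave 5 higher (EEF1D, EEF1G, PABPC1, TPT1 and EIF4B) and 1 lower (NPM1), where 27.3% of all 15273 genes tested were higher and 28.3% were lower at an adjusted p under 0.05. The median log2 fold change of these 8 genes was 0.32 against 0 over all genes. The count of 5 was 1 without DMSO library 1 and 1 without Nutlin library 3, and it was 2 without Nutlin library 1. EIF4B and NPM1 passed with every library left out in turn. NutlinGSK against DMSO gave 6 of 8 higher and 0 lower, where 32.0% of all genes were higher and 32.1% were lower. DESeq2 also gave 6, and the same 6 were those with an unadjusted p under 0.05. The count of 6 held whichever library was left out. NPM1 was lower as well without DMSO library 1 (-0.39, adjusted p = 0.037) or NutlinGSK library 3 (-0.44, adjusted p = 0.018). With a fold change above 1.5 as a further condition, NPM1 alone was lower under Nutlin, where 18.0% of all genes were. Under that condition 3 of 8 (EEF1D, PABPC1 and TPT1) were higher under NutlinGSK, where 22.5% of all genes were.

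GSK alone gave no passing member in TPC1. Of the 8 genes, 0 passed in edgeR, 0 had an unadjusted p under 0.05 and 0 passed in DESeq2, where 1.87% of all genes were higher and 1.64% lower. The log2 fold changes ran from -0.19 for NPM1 to 0.08 for EIF4B, with standard errors of 0.073 to 0.16. The replicate numbers were taken as pairing the TPC1 libraries, although the labels state no pairing and library 3 was also the deeper one in every treatment. With the number as a block NPM1 passed under GSK at -0.19 ± 0.062 (adjusted p = 0.043), where 11.4% of all genes were then lower. The same block brought NPM1 (-0.29 ± 0.062, adjusted p = 6.5e-04) and EIF3E (0.15 ± 0.067, adjusted p = 0.048) past the test in NutlinGSK against DMSO, where the block gave 36.5% of all genes as higher and 36.5% as lower. Library 3 lay above library 1 for all 10 genes in every TPC1 treatment, and not only for NPM1 and EIF3E. The summed share of the ribosomal protein genes did the same, with 6.44% and 7.76% in DMSO and 9.66% and 10.8% in NutlinGSK for libraries 1 and 3.

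**Figure D3:**
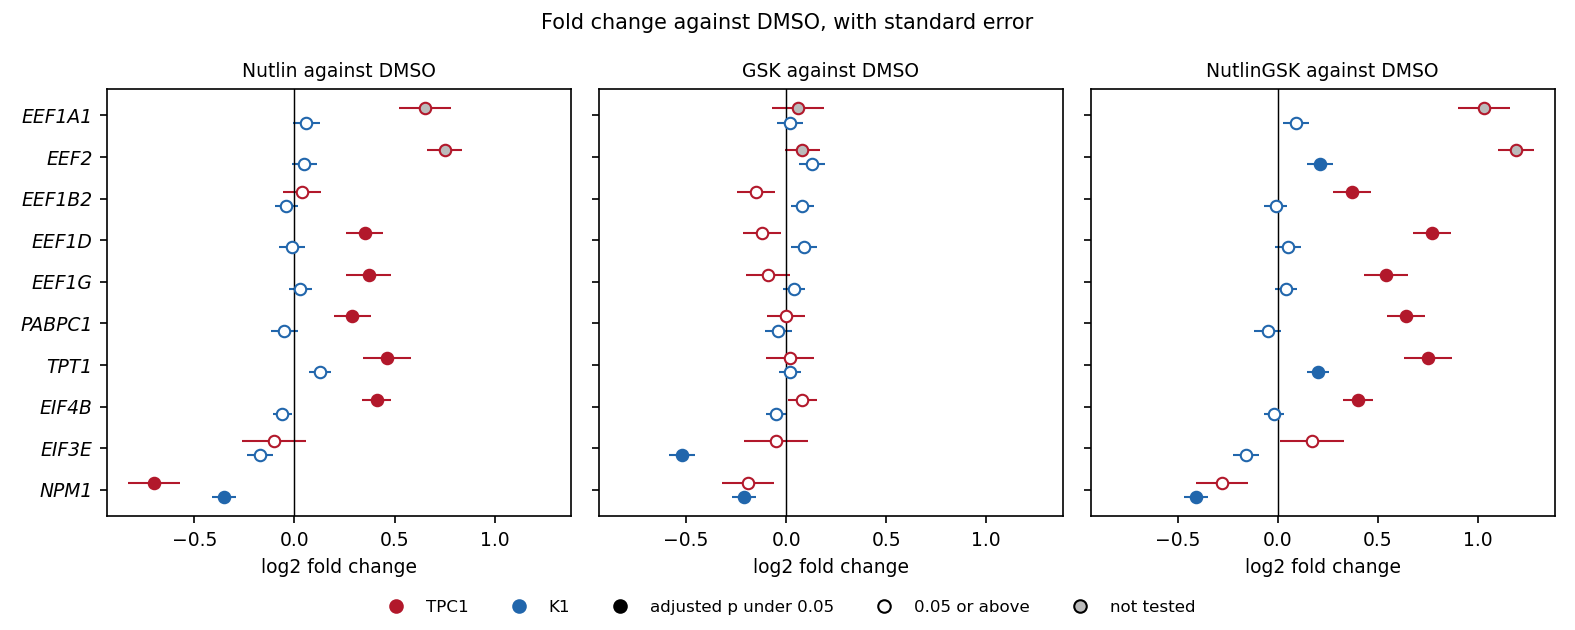
Log2 fold change against DMSO of each gene, with its standard error, in TPC1 (red) and K1 (blue) for Nutlin, GSK and NutlinGSK. Filled points have an adjusted p under 0.05 in edgeR, open points do not, and grey points (EEF1A1 and EEF2 in TPC1) were not tested. In NutlinGSK 8 TPC1 points lie at 0.37 or above, whereas all K1 points lie between -0.41 and 0.21.

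Part of the group was higher in TPC1 with both drugs than with Nutlin alone. NutlinGSK against Nutlin gave 4 of 8 higher, where 13.2% of all genes were higher and 12.9% lower. These were EEF1B2 (0.34 ± 0.095, adjusted p = 0.03), EEF1D (0.41 ± 0.094, adjusted p = 0.012), PABPC1 (0.35 ± 0.094, adjusted p = 0.023) and NPM1 (0.41 ± 0.13, adjusted p = 0.039). NPM1 thus lay closer to its DMSO level in NutlinGSK than in Nutlin. The untested values for EEF1A1 and EEF2 were 0.38 ± 0.13 and 0.44 ± 0.087. The count of 4 was 0 without Nutlin library 1, 0 without Nutlin library 3 and 0 without NutlinGSK library 3, and NPM1 alone also lost its call without GSK library 1 (adjusted p = 0.058) or GSK library 3 (adjusted p = 0.057). With the replicate block it was 7 of 8, all but EIF4B, where 22.2% of all genes were higher.

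The interaction, which is the Nutlin effect in the presence of GSK minus the Nutlin effect in its absence, passed for EEF1D alone (0.54 ± 0.13, adjusted p = 0.041), where 3.84% of all genes were higher and 4.74% lower. With the replicate block 7 of 8 passed, again all but EIF4B, where 13.0% of all genes were higher. The blocked values were largest for NPM1 (0.6 ± 0.087, adjusted p = 1.6e-04) and EEF1B2 (0.48 ± 0.086, adjusted p = 8.1e-04). Without the block the count of 1 was 3 without DMSO library 1 and 2 without NutlinGSK library 1, and it was 0 without DMSO library 3, NutlinGSK library 3 or any Nutlin or GSK library. Against GSK, NutlinGSK gave 6 of 8 higher, where 28.6% of all genes were higher and 29.9% lower. EIF3E joined them with the block (0.2 ± 0.067, adjusted p = 0.015), where 33.7% of all genes were higher, and also without NutlinGSK library 1 (0.43, adjusted p = 0.036). Library size as the only scaling moved the median of all genes in this comparison to -0.1058 from -0.0032, and the count of 6 held.

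In K1 few of the 10 genes passed. Nutlin gave 0 higher and 1 lower (NPM1), where 13.5% and 16.6% of all 15900 genes were, 3 of the 10 had an unadjusted p under 0.05, and DESeq2 passed 1. EIF3E (-0.17 ± 0.065, adjusted p = 0.058) passed as lower without Nutlin library 1 (adjusted p = 0.03), GSK library 1 (adjusted p = 0.04) or GSK library 2 (adjusted p = 0.039). GSK gave 0 higher and 2 lower (EIF3E and NPM1), where 8.38% and 10.8% of all genes were, with the same count of 2 at an unadjusted p under 0.05 and in DESeq2. NutlinGSK gave 2 higher (EEF2 and TPT1) and 1 lower (NPM1), where 21.0% and 22.2% of all genes were. EIF3E (-0.16 ± 0.064, adjusted p = 0.056) passed there without DMSO library 1 (adjusted p = 0.044), either Nutlin library (adjusted p = 0.044 each) or GSK library 1 or 2 (adjusted p = 0.039 and 0.038). The EIF3E change under GSK, at 1.43-fold, was the largest of the K1 differences from DMSO without the GC and length correction, though not with it. NutlinGSK against Nutlin gave 0 of 10 in edgeR and 0 in DESeq2, with 1 at an unadjusted p under 0.05, where 5.89% of all genes were higher and 6.53% lower.

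Relative to GSK, NutlinGSK in K1 was higher for EIF3E (0.35 ± 0.065, adjusted p = 6.8e-04) and TPT1 (0.18 ± 0.055, adjusted p = 0.018) and lower for NPM1 (-0.2 ± 0.06, adjusted p = 0.016), where 19.2% of all genes were higher and 21.3% were lower. The EIF3E interaction in K1 was 0.53 ± 0.092 (adjusted p = 0.0089), where 5.24% of all genes were higher and 2.83% lower. With the GC and length correction these EIF3E values were 0.12 ± 0.049 (adjusted p = 0.075) and 0.21 ± 0.069 (adjusted p = 0.16), and TPT1 was at 0.14 ± 0.054 (adjusted p = 0.058). In NutlinGSK against GSK the same correction brought EEF2 (0.24 ± 0.051, adjusted p = 0.0028), EEF1D (0.15 ± 0.051, adjusted p = 0.034) and EEF1G (0.14 ± 0.04, adjusted p = 0.014) past the test as higher, and NPM1 stayed lower at -0.31 ± 0.053. Leaving out Nutlin library 2 (adjusted p = 0.069) or NutlinGSK library 2 (adjusted p = 0.054) also ended the call of the interaction. The TPT1 difference from GSK did not pass without GSK library 2 (adjusted p = 0.14), NutlinGSK library 1 (adjusted p = 0.098) or NutlinGSK library 2 (adjusted p = 0.053), and that of NPM1 did not without GSK library 1 (adjusted p = 0.077) or NutlinGSK library 2 (adjusted p = 0.16).

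The lines differed before any treatment. In DMSO, 6 of the 8 genes other than EEF1A1 and EEF2 were lower in K1 than in TPC1 and 1 was higher, where 33.0% and 34.7% of all 16738 genes were. The log2 differences of EEF1A1 (-0.47) and EEF2 (-0.45) use the TPC1 values that entered the choice and are given without a test. PABPC1 differed most, at 541 and 596 CPM in K1 against 3794 and 3988 CPM in TPC1, a log2 difference of -2.78 ± 0.1 (adjusted p = 3.7e-13, 6.86-fold lower). It ranked 176th to 196th by count in K1 and 11th in TPC1. EIF3E was 2.11-fold lower (-1.08 ± 0.14, adjusted p = 3.2e-06), EEF1G 1.85-fold lower (-0.89 ± 0.1, adjusted p = 7.5e-07) and EEF1D 1.72-fold lower (-0.78 ± 0.094, adjusted p = 1.4e-06). TPT1 was higher in K1, by 0.35 ± 0.11 (adjusted p = 0.0093), which was 0.19 (adjusted p = 0.13) without TPC1 DMSO library 1 and 0.31 (adjusted p = 0.063) without K1 DMSO library 2. EIF4B did not pass (-0.08 ± 0.068, adjusted p = 0.28). EEF1A2, the tissue-restricted second gene for eEF1A, had 320 ± 28.7 CPM in TPC1 and 0.0965 ± 0.0158 CPM in K1 in DMSO (SD, n = 2).

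The responses also differed between the lines. The log2 fold change under Nutlin was lower in K1 than in TPC1 for EEF1D, PABPC1 and EIF4B, 3 of the 8 tested, where 16.5% of all genes had a lower response in K1 and 14.6% a higher one. The differences of log2 fold change were -0.39 ± 0.13 (adjusted p = 0.033), -0.37 ± 0.13 (adjusted p = 0.043) and -0.51 ± 0.096 (adjusted p = 7.2e-04). EIF4B passed with every library left out in turn, and the count of 3 ran from 1 to 5. EEF1D lost its call without TPC1 DMSO library 1, K1 DMSO library 2 or any of the 4 Nutlin libraries (adjusted p from 0.072 to 0.14). PABPC1 lost it without any of these (adjusted p from 0.058 to 0.17), without either K1 GSK library (adjusted p = 0.05 each) and without K1 NutlinGSK library 2 (adjusted p = 0.052). Without TPC1 DMSO library 3, EEF1G (-0.52, adjusted p = 0.0074) and TPT1 (-0.54, adjusted p = 0.0083) were added, and so they were without TPC1 NutlinGSK library 3. Without TPC1 NutlinGSK library 1 only EEF1G was added (adjusted p = 0.041), and without TPC1 DMSO library 1 NPM1 had the higher response in K1 (0.45, adjusted p = 0.037). With the replicate block it was 5, EEF1G and TPT1 being added, where 20.7% of all genes were lower, and NPM1 passed in the other direction (0.31 ± 0.095, adjusted p = 0.013), where 18.2% were.

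NutlinGSK gave a lower response in K1 for 6 of the 8, namely EEF1B2, EEF1D, EEF1G, PABPC1, TPT1 and EIF4B, where 19.7% of all genes were lower and 18.9% higher. The differences ran from -0.41 ± 0.13 for EEF1B2 (adjusted p = 0.019) to -0.74 ± 0.13 for EEF1D (adjusted p = 2.8e-04). EEF1B2 lost its call without TPC1 DMSO library 1 (adjusted p = 0.076), K1 DMSO library 2 (adjusted p = 0.072) or K1 NutlinGSK library 2 (adjusted p = 0.083). EIF3E (-0.36 ± 0.19, adjusted p = 0.17) and NPM1 (-0.15 ± 0.16, adjusted p = 0.48) did not pass, although EIF3E did with the block (-0.34, adjusted p = 0.0086), where 23.2% of all genes were lower, and without TPC1 NutlinGSK library 1 (-0.58, adjusted p = 0.013). In bulk RNA, fewer cells expressing a gene and less RNA of it per cell cannot be told apart.

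The other TOP mRNAs of the ribosome moved in the same direction as most of the 10 in TPC1. Of 78 cytosolic ribosomal protein genes tested there, 39 rose and 0 fell under Nutlin, where 27.3% and 28.3% of all genes did. Under NutlinGSK 71 rose and 0 fell, where 32.0% and 32.1% of all genes did, with a median log2 fold change of 0.53. RPS19 rose most among those named by rule, from 529 ± 45 CPM in DMSO to 1105 ± 43.2 CPM in NutlinGSK (SD, n = 2, log2 fold change 1.11 ± 0.089, adjusted p = 5.0e-06). In K1, 2 of 78 rose and 0 fell under NutlinGSK, with a median of -0.01, where 21.0% and 22.2% of all genes did. Those named were RPL13A (0.32 ± 0.059, adjusted p = 5.3e-04) and RPS19 (0.31 ± 0.066, adjusted p = 0.0016). With the replicate block in TPC1, 66 rose and 1 fell under Nutlin, where 33.1% and 33.2% of all genes did. With it 71 were higher in NutlinGSK than in Nutlin, compared with 10 without it. The shares of all genes were 22.2% with the block and 13.2% without it. For the interaction the block gave 76 of 78 higher, compared with 6 without it, where 13.0% and 3.84% of all genes were higher. Under GSK alone 0 of 78 passed in edgeR, where 1.87% of all genes were higher and 1.64% lower. DESeq2 also gave 0, and 11 had an unadjusted p under 0.05. With the block 19 were lower and 0 higher, where 11.4% of all genes were lower and 10.6% higher.

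The spliced host RNAs of small nucleolar RNAs also carry TOP tracts, although most encode no protein. All 7 measured (GAS5, SNHG1, SNHG5, SNHG6, SNHG8, SNHG12 and ZFAS1) were higher in NutlinGSK than in Nutlin in TPC1, where 13.2% of all genes were. Their median log2 difference was 0.82. All 7 were also higher for the interaction, where 3.84% of all genes were. SNHG8 had 37.2 ± 0.821 CPM in DMSO, 53.7 ± 1.93 CPM in Nutlin and 125 ± 2.05 CPM in NutlinGSK (SD, n = 2). GAS5 had 127 ± 18.5, 203 ± 9.7 and 410.0 ± 29.3 CPM in the same treatments (SD, n = 2). SNHG1 went the other way against DMSO, with a log2 fold change of -1.75 ± 0.095 in Nutlin (adjusted p = 5.8e-07) and -0.54 ± 0.091 in NutlinGSK (adjusted p = 6.4e-04). In K1, 0 of 7 differed between NutlinGSK and Nutlin in edgeR, where 5.89% of all genes were higher and 6.53% lower. DESeq2 also gave 0, and 2 had an unadjusted p under 0.05. SNHG1 fell in K1 as well (-1 ± 0.11 in NutlinGSK against DMSO, adjusted p = 9.1e-06).

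Further mRNAs reported to carry TOP tracts were mixed. Of 13 such genes, 7 rose and 1 fell under NutlinGSK in TPC1, where 32.0% and 32.1% of all genes did. In K1, 1 rose and 6 fell, where 21.0% and 22.2% of all genes did. The gene that fell in TPC1 was VIM, vimentin, from 3463 ± 351 to 1972 ± 159 CPM (SD, n = 2, log2 fold change -0.76 ± 0.11, adjusted p = 3.2e-04), and it fell in K1 too (-0.37 ± 0.056, adjusted p = 1.3e-04). EIF3F and EIF3H, which are also eIF3 subunits, each had a log2 fold change of 0.65 in TPC1 under NutlinGSK (adjusted p = 0.0018 and 0.0011). EIF2S3, a subunit of the initiator tRNA carrier eIF2, rose in TPC1 (0.27 ± 0.078, adjusted p = 0.014) and fell in K1 (-0.31 ± 0.055, adjusted p = 4.1e-04).

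Other translation factors moved in both directions in TPC1. Some genes are in more than 1 list, among them other reported TOP mRNAs, so the counts of different lists are not separate. Of 11 other elongation and termination factors tested in TPC1, 0 rose and 8 fell under Nutlin, where 27.3% and 28.3% of all genes did. Under NutlinGSK 1 rose and 5 fell, where 32.0% and 32.1% of all genes did. EIF5A, which helps ribosomes through difficult peptide bonds, fell from 1108 ± 105 to 469 ± 10.4 CPM (SD, n = 2, log2 fold change -1.19 ± 0.095, adjusted p = 4.7e-06), and the ribosome recycling factor ABCE1 fell by 1.34 ± 0.11 on the log2 scale (adjusted p = 4.4e-06). GTPBP2, a ribosome rescue GTPase, was the 1 that rose (1.13 ± 0.11, adjusted p = 1.5e-05), although it fell under Nutlin (-0.8 ± 0.11, adjusted p = 2.2e-04). Among 16 other initiation factors 5 rose and 6 fell under NutlinGSK, where 32.0% and 32.1% of all genes did, with EIF1 at 1.29 ± 0.082 (adjusted p = 1.1e-06) and EIF4G1 at -1.07 ± 0.094 (adjusted p = 8.7e-06). Among 11 other eIF3 subunits 4 rose and 1 fell under NutlinGSK, against the same 32.0% and 32.1% of all genes. EIF3B, the one that fell, was at -1.15 ± 0.076 (adjusted p = 1.3e-06). The 5 elongation factors of mitochondria had 2 higher and 3 lower under NutlinGSK, against these same shares of all genes.

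Of 10 poly(A) binding and nucleolar partners of PABPC1 and NPM1 tested in TPC1, 0 rose and 5 fell under Nutlin, where 27.3% and 28.3% of all genes did. Under NutlinGSK 2 rose and 5 fell, where 32.0% and 32.1% of all genes did. NCL, nucleolin, fell from 1680.0 ± 42.8 to 605 ± 46.2 CPM under NutlinGSK in TPC1 (SD, n = 2, log2 fold change -1.42 ± 0.093, adjusted p = 1.3e-06). It fell in K1 as well (-0.66 ± 0.052, adjusted p = 2.6e-07). FBL, the rRNA methyltransferase fibrillarin, had a log2 fold change of -0.78 ± 0.093 in TPC1 under NutlinGSK (adjusted p = 6.9e-05). The K1 value was -0.48 ± 0.059 (adjusted p = 1.8e-05).

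Of 19 regulators of TOP mRNAs and of elongation, 3 rose and 8 fell under NutlinGSK in TPC1, where 32.0% and 32.1% of all genes did. EEF2K encodes the kinase that inactivates eEF2, and it had 70.8 ± 9.58 CPM in DMSO, 48.4 ± 5.37 CPM in Nutlin, 71.8 ± 3.09 CPM in GSK and 33.3 ± 4.62 CPM in NutlinGSK in TPC1 (SD, n = 2). Its log2 fold change was -0.52 ± 0.13 in Nutlin (adjusted p = 0.0065) and -1.04 ± 0.13 in NutlinGSK (adjusted p = 8.0e-05), the opposite direction to EEF2 itself, and -0.21 ± 0.059 in NutlinGSK in K1 (adjusted p = 0.011). LARP1 was at -0.44 ± 0.16 in Nutlin (adjusted p = 0.046) and -0.33 ± 0.16 in NutlinGSK (adjusted p = 0.11) in TPC1, and at -0.2 ± 0.049 in NutlinGSK in K1 (adjusted p = 0.0041). EIF4EBP1, a repressor of cap-dependent translation, fell under Nutlin in TPC1 (-0.96 ± 0.1, adjusted p = 5.1e-05) and was near its DMSO level in NutlinGSK (0.12 ± 0.1, adjusted p = 0.35). MTOR did not pass in either line in these comparisons (-0.17 ± 0.14 in TPC1 and -0.05 ± 0.049 in K1 for NutlinGSK).

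**Figure D4:**
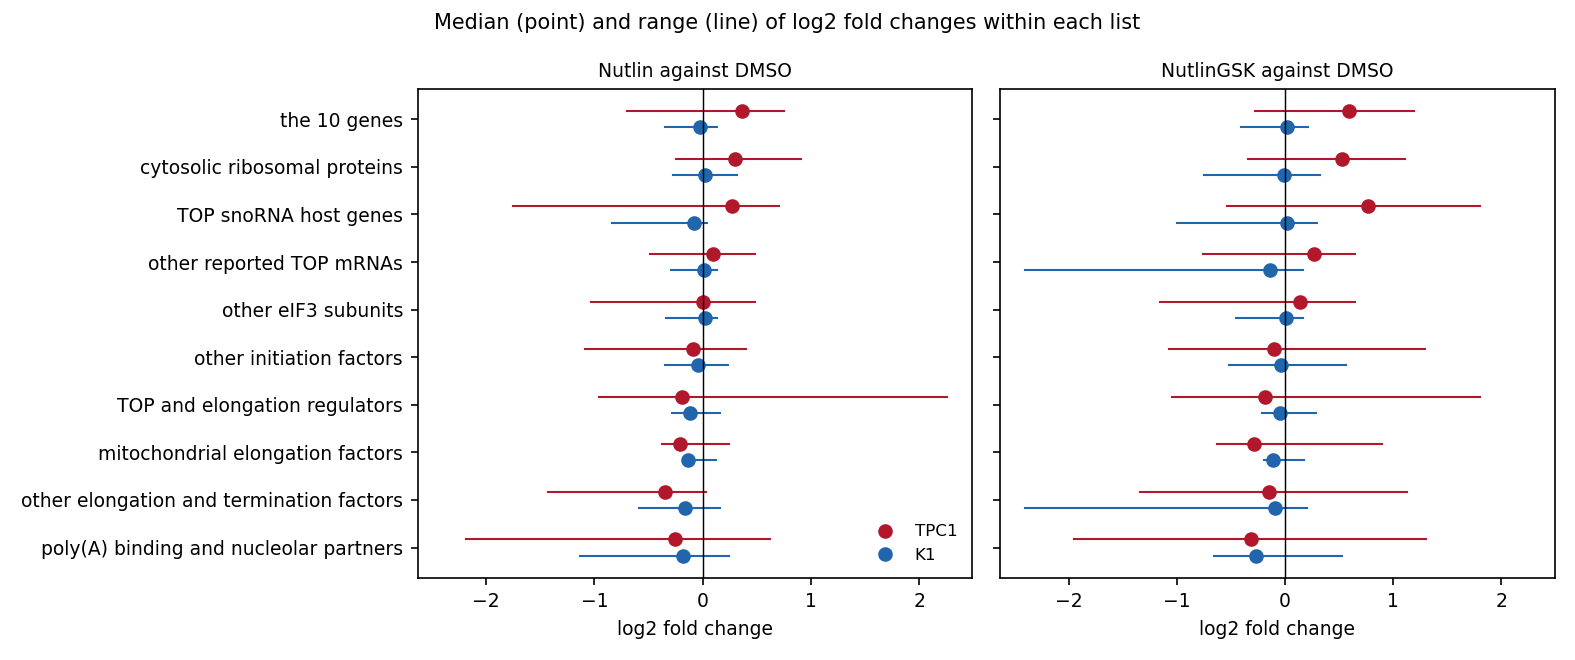
Median (point) and range (line) of the log2 fold changes against DMSO within each list, for Nutlin and NutlinGSK, in TPC1 (red) and K1 (blue). Some lists share genes. In TPC1 under NutlinGSK the medians of the 10 genes (0.59 with EEF1A1 and EEF2, which entered the choice, and 0.47 over the other 8), the ribosomal protein genes (0.53) and the snoRNA host genes (0.77) lie above 0. Those of the other reported TOP mRNAs (0.27) and other eIF3 subunits (0.14) do too. Below 0 lie the poly(A) binding and nucleolar partners (-0.31), mitochondrial elongation factors (-0.29), TOP and elongation regulators (-0.18), other elongation and termination factors (-0.15) and other initiation factors (-0.1).

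The TOP definition was also applied to all other genes with a start sequence. Of 722 tested genes with a tract outside the 10 and the ribosomal proteins, 33.2% were higher and 33.7% were lower in TPC1 under NutlinGSK. The corresponding shares were 31.8% and 34.6% for 9990 genes without one. Restricted to mean levels of 100 CPM or more, 25.5% of 157 with a tract and 30.1% of 1509 without one were higher. In both of these sets 44.6% were lower. In K1 under NutlinGSK, 21.2% of 751 with a tract were higher and 26.9% lower, against 21.9% and 24.1% of 10340 without one. At 100 CPM or more the K1 shares were 25.0% and 42.9% of 140 with a tract, and 26.5% and 35.0% of 1425 without one. No test was made of these shares.

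The patterns most like that of EEF1A1 over the 8 TPC1 libraries, by Pearson's correlation of log2(CPM + 1) with TMM scaling among 4421 genes whose mean reached 50 CPM, were those of TPT1 (0.996), CLK3 (0.996), NOMO1 (0.995), OCIAD1 (0.995) and GLTSCR2 (0.994). For EEF2 they were GPR108 and RAP2B (0.999 each), MKNK2 and PRCP (0.998 each) and TSC22D1 (0.997). In K1 those nearest to EEF1A1 included RPL3 (0.978), RPL10A (0.959), TMEM230 (0.958) and RPL10 (0.945). EIF3L (0.988), DNAJB6 (0.986), TMBIM6 (0.977), STRAP (0.968) and WARS (0.962) were nearest to EEF2 in K1. NPM1 ran against EEF1A1 in both lines, with -0.428 in TPC1 and -0.277 in K1. These points share treatments, and in TPC1 also the replicate numbers and their depth, so the values are descriptions.

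Several of these genes have processed pseudogenes or close paralogs, and the authors removed reads of low mapping quality, so part of their reads may be missing from every library. Of the paralogs and pseudogenes of PABPC1 and EEF1D listed under their own symbols, PABPC1L reached 11.5 CPM, PABPC3 reached 8 counts and EEF1DP3 reached 10 counts, and the counts of EEF1A2 are given above. With 2 libraries against 2, an exact permutation test cannot go below p = 0.333, so all tests above rest on the spread shared across genes in edgeR.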

How the data were processed

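The authors sequenced poly(A) RNA as 16 libraries, with single-end reads of 150 bases, aligned them with TopHat2 2.0.13 to hg19 (GRCh37) with at most 10 multiple hits, removed alignments of mapping quality under 10 and counted reads per gene, by strand, with HTSeq 0.6.1. The deposited values are raw counts per gene symbol without normalization, and all 16 columns were used.

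CPM and percent of counts use the total of each library. Genes above 0.1 CPM in at least 2 libraries (15273 in TPC1, 15900 in K1, 16738 in both lines) were scaled by TMM and tested with edgeR 4.0.16 (quasi-likelihood, R 4.3.3, limma 3.58.1), the 4 treatments of a line in 1 fit and the 8 groups in another for differences between lines, with Benjamini-Hochberg adjustment over all genes of a comparison. Passing means an adjusted p under 0.05. Values after ± are the SE for log2 differences and the SD for CPM, percent and ratios. The study describes its replicates as prepared independently, and p-values rest on the spread between libraries as shared across genes in edgeR. In TPC1 without the block, that spread includes the difference between the library numbers.

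The deviations of same-numbered TPC1 libraries correlated at 0.519 to 0.722 for all 6 pairs of treatments (12303 genes), so the number was taken as pairing them. The labels state no pairing, and depth differs with the number, so the 2 cannot be told apart. Alternatives were DESeq2 1.42.0 (Wald test or size factors), library size only, TMM without the members and ribosomal protein genes, filterByExpr, no filter, the compared groups only, the replicate block, a correction for GC content and length (values for 87.1% of TPC1 and 86.8% of K1 genes tested) and leaving out each library. The steps were tested on simulated data. The members and gene lists were chosen with earlier results of these data known, and the lists were written from general knowledge. From each list the 2 largest and 2 smallest passing changes of NutlinGSK per line (mean of at least 5 CPM) were named, besides all members, CDKN1A, MDM2, LARP1, EIF4EBP1, EEF2K, MTOR, EEF1A2, paralogs and the 5 genes most correlated with EEF1A1 or EEF2. Results for some genes are not reported here. Gene spans are from GENCODE on GRCh37.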

Additional observations from a re-analysis of the deposited data

Results flagged for a closer look

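Responses to treatment differed between the lines by a test of the difference itself for 9 values (edgeR, quasi-likelihood, Benjamini-Hochberg over all genes, 16 libraries in 1 fit). Each is the log2 fold change in K1 minus that in TPC1. For Nutlin against DMSO they were -0.39 for EEF1D, -0.37 for PABPC1 and -0.51 for EIF4B. For NutlinGSK against DMSO they were -0.41 for EEF1B2, -0.74 for EEF1D, -0.53 for EEF1G, -0.72 for PABPC1, -0.58 for TPT1 and -0.44 for EIF4B. All 9 have the lower response in K1. The PABPC1 difference under Nutlin was -0.32 (adjusted p = 0.063) with filterByExpr.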

How the results depend on the processing

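Counts of members passing the test moved by more than 1.5 times as follows. Shares of all genes were taken for the main fit, as given above, and for the replicate block. For the other settings, and with libraries left out, a moved count cannot be told apart from a moved share of all genes. With the replicate block, TPC1 gave 1 lower under GSK, 1 lower under NutlinGSK against DMSO, 7 higher against Nutlin and 7 higher for the interaction, and the response to Nutlin was lower in K1 for 5 and higher for 1. The block gave 11.4%, 36.5%, 22.2% and 13.0% of all genes for these TPC1 calls, and 20.7% and 18.2% for the response. The GC and length correction with the replicate block gave 1, 1, 7 and 7 for the same TPC1 counts. The GC and length correction alone gave 1 lower under NutlinGSK and 4 for the interaction in TPC1. In K1 it gave 1 lower under GSK, 2 lower under NutlinGSK against DMSO, 1 higher against Nutlin and 0 for the interaction. Without a filter, TPC1 gave 1 lower under NutlinGSK and 3 for the interaction, and K1 gave 2 lower under Nutlin, 2 lower under NutlinGSK and 1 higher against Nutlin. Library size alone gave 1 lower under NutlinGSK in TPC1 and 1 higher against Nutlin in K1. DESeq2 gave 3 for the TPC1 interaction, the compared groups alone gave 2 lower under NutlinGSK in K1, and TMM without the members and ribosomal protein genes gave 1 lower response to Nutlin in K1.

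With the GC and length correction, 2 values turned from just below 0 to above it, NutlinGSK against GSK in K1, to 0.15 for EEF1D (adjusted p = 0.034) and 0.14 for EEF1G (adjusted p = 0.014), both then passing. The share ratio of NutlinGSK to DMSO in TPC1 was 1.97 for EEF1A1, 2.2 for EEF2 and 1.73 for the 10 genes. Relative to counts outside the ribosomal protein genes and members these were 2.08, 2.32 and 1.83, and with TMM library sizes 2.04, 2.28 and 1.79.

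With each library left out in turn, the TPC1 counts ran from 1 to 5 higher under Nutlin, 0 to 1 lower under NutlinGSK, 0 to 4 higher against Nutlin and 0 to 3 for the interaction. The K1 counts ran from 1 to 2 lower under Nutlin, 1 to 2 lower under GSK, 0 to 2 higher and 1 to 2 lower under NutlinGSK, 1 to 2 higher and 0 to 1 lower against GSK, and 0 to 1 for the interaction. Between lines they ran from 0 to 1 higher in DMSO, and from 0 to 1 higher and 1 to 5 lower for the response to Nutlin. The TPC1 share ratios ran from 1.8 to 2.14 for EEF1A1, 2.15 to 2.24 for EEF2 and 1.63 to 1.84 for the 10 genes. The causes of these changes were not tested. Of the member fold changes under other settings with all libraries, 1198 kept direction and side of the threshold, 51 came to pass and 7 ceased to pass, and with each library left out 1334 kept both, 21 came to pass and 65 ceased to pass. In K1 same-numbered libraries correlated at -0.386 to 0.406 (12546 genes), they share only a number, and the block left the K1 counts of members as they were. Depth limits the precision little, since the smallest member count was 4707, and 2 libraries per group limit it more.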
